A study of Homo sapiens with 24 samples.

Results

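The proteasome subunit genes described here are the protein-coding genes named PSMA, PSMB, PSMC or PSMD plus a number in the deposited count table, without PSMB8, PSMB9 and PSMA8. The rule gave 36 genes of the 58735 in the table, 19951 of which are protein-coding. Of the 36, 35 had enough counts to be tested, and PSMB11 did not. The set was proposed as the constitutive subunits, and most members are: 7 form the alpha ring of the core particle, 7 are constitutive beta subunits, 6 form the ATPase ring of the regulatory particle and 11 are its non-ATPase subunits. By what their products are known to do, 5 members are not constitutive subunits. PSMB10 encodes the beta2i subunit of the immunoproteasome and PSMB11 the beta5t subunit of the thymus. PSMD5, PSMD9 and PSMD10 encode chaperones that help to assemble the regulatory particle and leave the finished complex.

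The study measured polyA-selected RNA of THP-1 and of MOLM-13, both human acute myeloid leukemia lines with the MLL-AF9 (KMT2A-MLLT3) fusion. In each line, cells were kept for 72 h with the combination of both compounds, with L-ascorbic acid (LAA) at 250 µM in PBS, with olaparib at 1 µM in DMSO, or with the vehicles PBS and DMSO together. Olaparib inhibits poly-ADP-ribose polymerases, and TET enzymes, which oxidize methylated cytosine, use ascorbate as a cofactor. Each of the 8 groups held 3 libraries, 24 in all, and the study set each treatment against vehicle. The labels do not say whether the 3 libraries of a group came from separate cultures, so p-values measure the spread between these libraries, which may be technical. Each line is a single cell line in culture, without the other cells of a marrow.

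The proteasome degrades proteins that carry ubiquitin chains. Its core particle is a barrel of alpha and beta rings, and PSMB5, PSMB6 and PSMB7 supply the active sites inside it. The regulatory particle caps the barrel, binds and removes ubiquitin, and unfolds the substrate with its ATPase ring. When proteasome activity falls short, the transcription factor NFE2L1 is known to raise many subunit genes together through antioxidant response elements in their promoters.

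Libraries held 18666259 to 25265870 counts, and the 36 genes took 0.412 to 0.542% of them. Mitochondrially encoded genes took 6.63 to 11.02%. Myeloid genes were present in every library, with SPI1 at 292 to 407 CPM (counts as a share of the library's total, after TMM normalization, on the usual CPM scale) and CD33 at 36.4 to 50.8 CPM. MPO was at 4.52 to 9.21 CPM. CD3E, MS4A1 and EPCAM were at 0 to at most 0.182 CPM, and HBB had 0 counts. KRT8 lay at 1.97 to 8.3 CPM and KRT18 at 0 to 0.75 CPM.

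Genes that separate the lines were not at one level across the libraries labelled MOLM-13. A check used 15 protein-coding genes: THP-1 had no more than 12 counts of each in its 12 libraries together, and olaparib libraries labelled MOLM-13 had 20 or more. Their summed level in the libraries labelled MOLM-13 was 4.09 ± 1.04 CPM with the combination, 5.34 ± 0.5 with LAA, 19.2 ± 1.37 with olaparib (the group used to choose them) and 31.6 ± 0.888 with vehicle (SD, n = 3 each). In THP-1, where the choice of genes itself required low counts, the group means lay between 0.23 and 0.361 CPM. FLT3, which carries an internal tandem duplication in MOLM-13, averaged 10 ± 0.934 CPM with the combination, 7.83 ± 1.65 with LAA, 24.9 ± 3.46 with olaparib and 36 ± 1.93 with vehicle in the libraries labelled MOLM-13 (SD, n = 3 each). In THP-1 it lay between 5.84 and 11.9 CPM. MTAP had 0 counts in every THP-1 library and 0.0516 to 2.45 CPM in libraries labelled MOLM-13. Of all genes, 765 of 17089, 4.48%, differed between the vehicle groups of the lines, and mean log2 levels across genes had a Pearson r of 0.994 between those groups. Whether the libraries labelled MOLM-13 hold RNA of MOLM-13 alone, or at all, is in doubt from these values and was not tested. Each difference between the lines below is a difference between labels. These genes thus stood lower with the combination, with LAA and, less so, with olaparib than with vehicle inside the libraries labelled MOLM-13. The part of these genes in the results for that label was not tested. LAA replicate 3 and olaparib replicate 3 of that label stood farthest from their fellows, with a chi-square per degree of freedom of up to 25 and 25.1, where other pairs began at 3.87. Without either one, the counts of called members in the comparisons of LAA or olaparib with vehicle were again 0, and those of the combination with either compound again 1. Vehicle replicate 1 of that label came next, at 14.1 and 13.1, where replicates 2 and 3 had 5.24 between them. Without it, the line difference in the combination effect had 0 called members in place of 2, and the combination against vehicle again had 1.

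The promoters of 7 members are shown. PSMA4, PSMC4, PSMA3 and PSMC2 had the smallest adjusted p among those higher with the combination in THP-1, and PSMD10 was the one lower. PSMB3 and PSMD3, also higher, were picked because they hold an antioxidant response element core in the stretch printed. The 7 stretches therefore do not show how often that core occurs among the members. Each line gives the 150 bases before the RefSeq start site (GRCh38.p14), read 5′ to 3′ on the gene's strand. Capitals mark whole matches to 4 motifs, searched on both strands. The antioxidant response element core, bound by NFE2L1 and NFE2L2, was searched as TGACNNNGC. The box known as CCAAT was searched by those letters. The core site of ETS factors was searched as CCGGAAG, and the core of the interferon-stimulated response element as GAAANNGAA. The stretches are PSMA4 chr15:78540255-78540404 (plus strand), PSMC4 chr19:39971015-39971164 (plus strand), PSMA3 chr14:58244693-58244842 (plus strand), PSMC2 chr7:103347493-103347642 (plus strand), PSMB3 chr17:38752591-38752740 (plus strand), PSMD3 chr17:39980657-39980806 (plus strand) and PSMD10 chrX:108091543-108091692 (minus strand).
PSMA4: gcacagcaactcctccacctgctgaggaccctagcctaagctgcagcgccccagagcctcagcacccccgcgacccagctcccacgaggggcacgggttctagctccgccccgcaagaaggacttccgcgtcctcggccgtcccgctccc
PSMC4: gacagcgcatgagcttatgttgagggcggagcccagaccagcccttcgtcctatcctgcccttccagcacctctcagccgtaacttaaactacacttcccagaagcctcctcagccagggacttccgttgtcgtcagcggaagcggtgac
PSMA3: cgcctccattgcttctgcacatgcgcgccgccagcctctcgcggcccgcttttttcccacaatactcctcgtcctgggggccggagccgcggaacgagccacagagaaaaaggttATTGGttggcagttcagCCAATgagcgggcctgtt
PSMC2: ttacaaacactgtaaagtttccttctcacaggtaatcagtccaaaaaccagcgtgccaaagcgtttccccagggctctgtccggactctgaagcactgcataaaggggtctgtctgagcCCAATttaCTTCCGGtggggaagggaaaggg
PSMB3: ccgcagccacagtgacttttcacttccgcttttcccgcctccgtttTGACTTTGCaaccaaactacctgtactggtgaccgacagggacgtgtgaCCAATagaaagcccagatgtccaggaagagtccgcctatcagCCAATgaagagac
PSMD3: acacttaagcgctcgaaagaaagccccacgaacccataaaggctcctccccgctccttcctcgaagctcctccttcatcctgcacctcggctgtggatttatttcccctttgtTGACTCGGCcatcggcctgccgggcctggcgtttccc
PSMD10: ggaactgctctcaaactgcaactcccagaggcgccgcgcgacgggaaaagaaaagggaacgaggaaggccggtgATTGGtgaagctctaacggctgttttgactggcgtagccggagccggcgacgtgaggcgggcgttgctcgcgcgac

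RefSeq windows, 250 bases before to 50 bases after the start, were found for 31 of the 36 genes. PSMA7, PSMB1, PSMB6, PSMB7 and PSMD4 had no entry. On either strand, TGACNNNGC stood in 7 of the 31 windows (22.6%), against 13.6% of 27305 windows over all symbols. CCAAT stood in 16 (51.6%), against 35.7%. CCGGAAG stood in 10 (32.3%), against 10.7%. GAAANNGAA stood in 4 (12.9%), against 8.29%. Of the 15 windows of genes higher with the combination in THP-1, 10 held CCAAT, 5 held CCGGAAG, 4 held TGACNNNGC and 2 held GAAANNGAA. Of the 15 windows of the other tested genes, 5 held CCAAT, 5 held CCGGAAG, 3 held TGACNNNGC and 2 held GAAANNGAA. A match is only a run of letters. In PSMB3 the TGACNNNGC match begins 104 bases before the start, and in PSMD3 it begins 37 bases before. PSMB3 and PSMD3 are not the only members with such a match in those 150 bases. PSMD9, also higher, has matches that begin 149 and 102 bases before the start. PSMD5, not called, has a match that begins 134 bases before, and neither stretch is printed. PSMA4 and PSMC4 have no match in the 150 bases printed: the GAAANNGAA of PSMA4 begins 240 bases before the start and the TGACNNNGC of PSMC4 lies after it.

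Per length, some core particle genes were among the most abundant members and others, such as PSMA1 at a median of 10.7 FPKM, among the least. The deposited FPKM values (counts per length of the gene model and per library size) had medians over the 24 libraries of 163 for PSMA7, 157 for PSMB4, 129 for PSMB3, 114 for PSMB1 and 101 for PSMC3. The catalytic subunits followed at 72.6 for PSMB5, 69 for PSMB6 and 59.6 for PSMB7, and PSMB10 stood at 42.1 FPKM. PSMD4, a ubiquitin receptor, had 88.3 FPKM, and PSMD14, the deubiquitinase of the regulatory particle, 16 FPKM. The chaperones PSMD10 and PSMD5 had 18.9 and 5.41 FPKM. The order per length depends on the gene model lengths, which ran from 1179 bases (PSMB3) to 9123 bases (PSMD6). PSMB11 had 1 count over all 24 libraries, so no value can be given for any group. The spread between libraries of a group was small: the median coefficient of variation of CPM over the 8 groups ran from 2.96% (PSMC1) to 19.3% (PSMA6), with a median of 5.83% over the 35 genes.

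PSMA2, PSMA6 and PSMD9 had medians of only 0.783, 0.771 and 0.719 FPKM, although PSMA2 and PSMA6 encode obligate alpha subunits. In the deposited annotation each is covered by another protein-coding gene on the same strand, over 99.7% of PSMA2, 100% of PSMA6 and 99.7% of PSMD9. Those covering genes themselves held 7, 14 and 5 counts over all libraries. Reads that fall in both genes of such a pair may not have been counted for either, and the counting rule is not given in the sources used here, so the levels of these 3 genes are uncertain. PSMB10 overlaps AC040162.1 on the same strand over 58.6% of its length, and PSMA1 overlaps AC018523.2 on the same strand over 11.1%. The library kit does not mark the strand, and reads of opposite-strand neighbours cannot be told apart where they overlap: PSMC5 with FTSJ3, PSMC1 with NRDE2, PSMA3 with PSMA3-AS1 and ARMH4, and PSMD5 with CUTALP. Pseudogenes named after 22 members, 56 in all, held at most 21.8% of the summed counts of a gene and its pseudogenes (PSMA6).

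**Figure D1:**
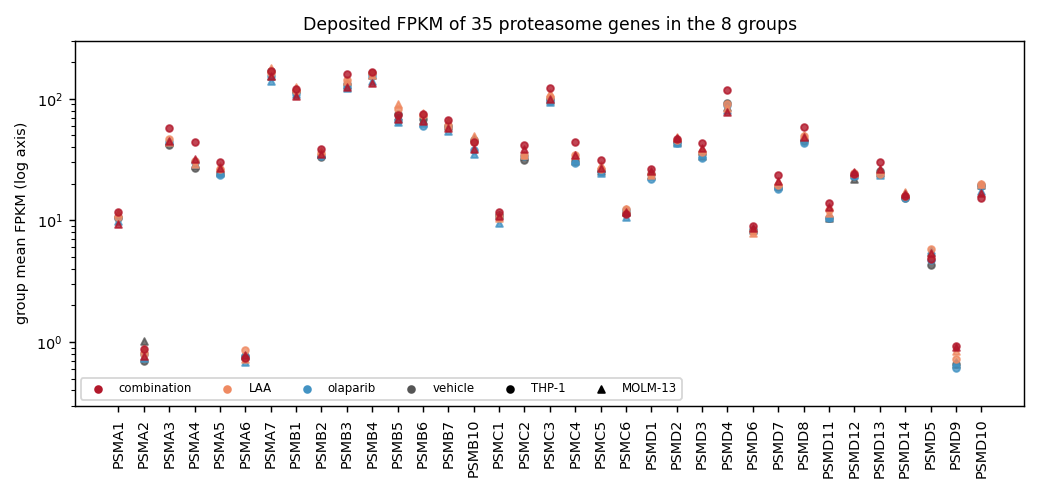
Group mean FPKM (log axis) of the 35 tested genes, ordered by role, in the 8 groups; circles are THP-1 and triangles libraries labelled MOLM-13, 3 libraries a group. PSMA7 and PSMB4 stand highest, PSMA2, PSMA6 and PSMD9 lie near 1 FPKM, and for most genes the 8 means differ little against the range between genes.

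In THP-1, the combination raised 16 of the 35 tested genes over vehicle and lowered 1. The 16 were PSMA3, PSMA4, PSMA5, PSMB2, PSMB3, PSMC2, PSMC3, PSMC4, PSMC5, PSMD3, PSMD4, PSMD7, PSMD8, PSMD9, PSMD11 and PSMD13, by 1.17 to 1.6-fold, and the one lower was PSMD10. They were 45.7% of the tested members, where 13.5% of all 16331 genes tested were called higher and 13.5% lower (edgeR quasi-likelihood test, Benjamini-Hochberg adjusted p below 0.05). The median log2 fold change was 0.16 over the members and -0.012 over all genes. The summed level of the members was 5178 ± 198 CPM with the combination, 4640 ± 132 with LAA, 4316 ± 260 with olaparib and 4473 ± 67 with vehicle (SD, n = 3 each). Mitochondrially encoded genes took 8.39 ± 0.941% of counts with the combination and 7.09 ± 0.354% with vehicle (SD, n = 3 each). With those genes left out of the library sizes, the count was again 16 higher and 1 lower.

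**Figure D2:**
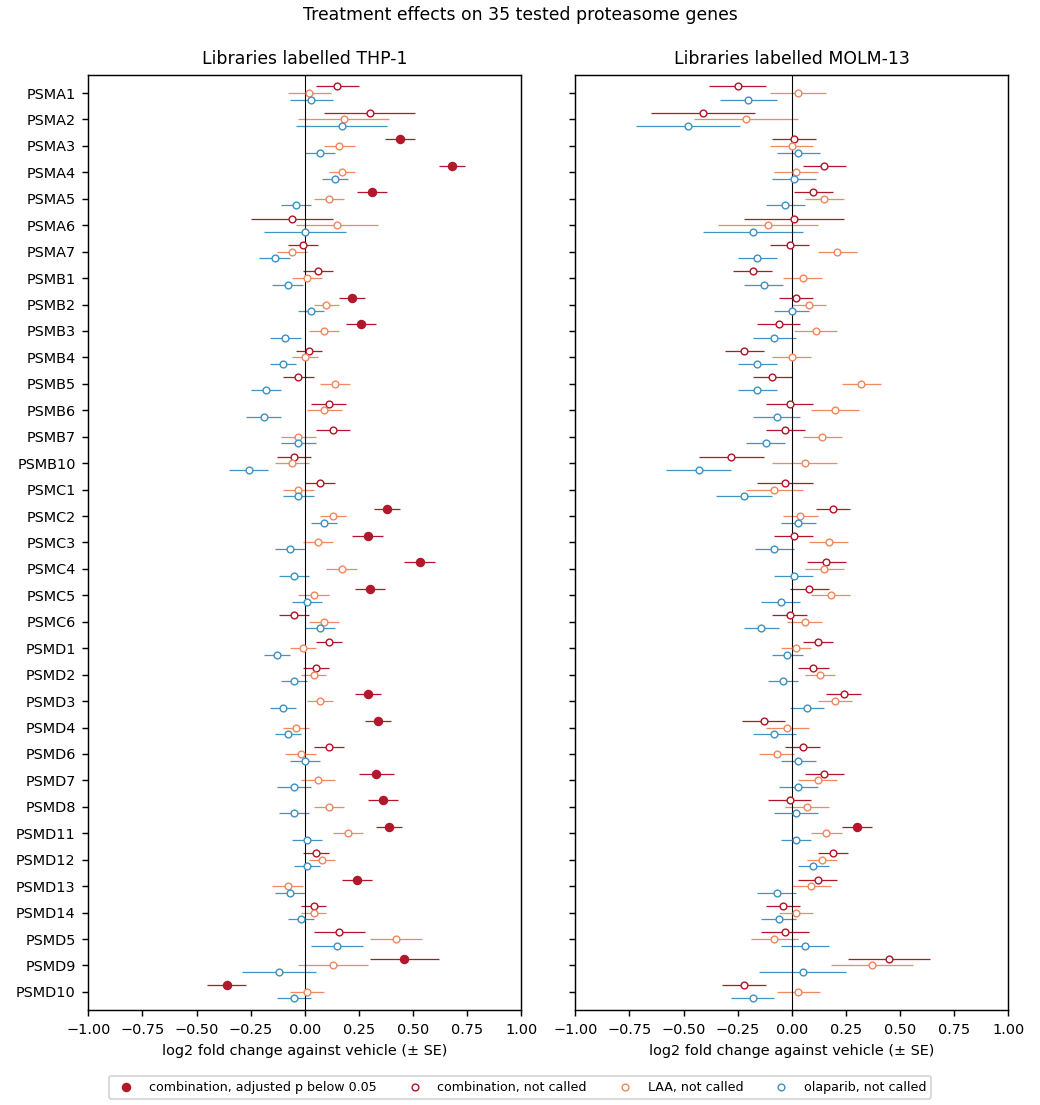
Log2 fold change against vehicle (x axis, bars are SE) of the 35 tested genes for the combination, LAA and olaparib in THP-1 (left) and in libraries labelled MOLM-13 (right); filled points passed adjusted p below 0.05. In THP-1 the filled points are 16 to the right of 0 and PSMD10 to its left, while on the right panel only PSMD11 is filled.

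In the alpha ring of THP-1, 3 of 7 genes rose with the combination, and their log2 changes ran from -0.06 to 0.68. PSMA4, the alpha3 subunit, had 314, 287 and 328 CPM with the combination, 214, 215 and 221 with LAA, 220, 199 and 217 with olaparib, and 195, 185 and 197 with vehicle. All 3 combination libraries stood above the 9 others. PSMA4 (ENSG00000041357) spans chr15:78540405-78552419 on the plus strand of hg38. The log2 change over vehicle was 0.68 ± 0.06 (SE; 1.6-fold), with an adjusted p of 1.79e-09 in edgeR. PSMA3, the alpha7 subunit, had 177, 176 and 185 CPM with the combination, 149, 144 and 149 with LAA, 146, 122 and 144 with olaparib, and 136, 126 and 131 with vehicle. Its log2 change was 0.44 ± 0.07 (SE; edgeR adjusted p = 9.88e-06), again with no overlap between combination and the other groups. The third was PSMA5, at 176, 167 and 183 CPM with the combination and 148, 141 and 133 with vehicle. PSMA7, the most abundant alpha gene per length, had a log2 change of -0.01 ± 0.07 (SE), and PSMA1, PSMA2 and PSMA6 were not called either.

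Among the beta genes, 2 of 7 passed the test. Of the 4 beta genes without an active site, PSMB2 and PSMB3 rose, with log2 changes of 0.22 ± 0.06 and 0.26 ± 0.07 (SE). None of the 3 catalytic genes was called. PSMB5, the chymotrypsin-like subunit, had 135, 129 and 130 CPM with the combination, 150, 151 and 139 with LAA, 116, 106 and 129 with olaparib, and 121, 139 and 139 with vehicle. The combination and vehicle libraries overlapped, and the log2 change was -0.03 ± 0.07 (SE). PSMB6, the caspase-like subunit, had 110, 102 and 117 CPM with the combination, 107, 111 and 104 with LAA, 88.3, 75.5 and 99.1 with olaparib, and 99.4, 96.6 and 105 with vehicle, a log2 change of 0.11 ± 0.08 (SE). PSMB7, the trypsin-like subunit, had 109, 114 and 136 CPM with the combination, 103, 104 and 111 with LAA, 112, 98.9 and 106 with olaparib, and 104, 110 and 111 with vehicle, a log2 change of 0.13 ± 0.08 (SE). Combination and vehicle overlapped for both. PSMB10, which replaces PSMB7 in the immunoproteasome, had 76.4, 84.4 and 87 CPM with the combination, 78, 90 and 76.4 with LAA, 72.7, 61.3 and 78.2 with olaparib, and 78.6, 90.2 and 85.6 with vehicle, with a log2 change of -0.05 ± 0.08 (SE).

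In the ATPase ring, 4 of 6 genes rose and the log2 changes ran from -0.05 to 0.53. PSMC4 had 112, 98.8 and 110 CPM with the combination, 79.9, 84.2 and 84.3 with LAA, 72.2, 68.2 and 73.1 with olaparib, and 73.7, 70.6 and 76.8 with vehicle. The combination libraries stood above all others, and the LAA libraries stood above the vehicle libraries. The log2 change of the combination was 0.53 ± 0.07 (SE; edgeR adjusted p = 1.19e-06). PSMC2 had 145, 146 and 152 CPM with the combination, 124, 123 and 125 with LAA, 124, 116 and 121 with olaparib, and 115, 109 and 115 with vehicle. Its log2 change was 0.38 ± 0.06 (SE; edgeR adjusted p = 2.02e-05). PSMC3 and PSMC5 rose by 0.29 ± 0.07 and 0.3 ± 0.07 (SE), while PSMC1 and PSMC6 did not pass the test.

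Of the 11 non-ATPase genes, 6 rose, with log2 changes over all 11 from 0.04 to 0.39. PSMD4 had 369, 336 and 380 CPM with the combination, 268, 289 and 270 with LAA, 281, 242 and 284 with olaparib, and 273, 289 and 289 with vehicle. Neither single compound stood apart from vehicle, and the combination stood above all 9 other libraries. The log2 change was 0.34 ± 0.06 (SE; edgeR adjusted p = 0.000206). PSMD11, which helps to hold the lid of the regulatory particle to its base, had 100, 98.7 and 102 CPM with the combination, 90.7, 87.8 and 84.5 with LAA, 76.9, 74.8 and 77 with olaparib, and 72.1, 79.1 and 76.7 with vehicle. Its log2 change was 0.39 ± 0.06 (SE; edgeR adjusted p = 3.91e-05). PSMD13, a lid subunit, had 138, 136 and 158 CPM with the combination and 125, 126 and 113 with vehicle. PSMD14 had 118, 125 and 128 CPM with the combination, 127, 116 and 126 with LAA, 118, 113 and 123 with olaparib, and 120, 123 and 115 with vehicle. All its groups overlapped, and its log2 change was 0.04 ± 0.06 (SE). PSMD1 and PSMD2, the large scaffold subunits, had log2 changes of 0.11 ± 0.06 and 0.05 ± 0.06 (SE) and were not called.

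The 3 assembly chaperones went different ways. PSMD10 (gankyrin) had 37.9, 37.2 and 39.6 CPM with the combination, 46.5, 47.7 and 52.8 with LAA, 49.2, 42.5 and 49.4 with olaparib, and 45.3, 52.7 and 48 with vehicle. The 3 combination libraries were below the 9 others, and the log2 change over vehicle was -0.36 ± 0.09 (SE; edgeR adjusted p = 0.00238). PSMD9 had 8.11, 8.14 and 8.2 CPM with the combination, 7.16, 5.84 and 6.36 with LAA, 5.29, 6.14 and 4.84 with olaparib, and 6.26, 5.18 and 6.23 with vehicle, a log2 change of 0.46 ± 0.16 (SE). Its call, at an edgeR adjusted p of 0.0373, was lost under 9 of 16 alternatives, each omission of 1 library included, with adjusted p up to 0.155. PSMD5 had 20.6, 24.4 and 19.8 CPM with the combination, 17.7, 24.7 and 21.3 with olaparib, and 19.5, 17.6 and 20.6 with vehicle, and was not called. In LAA libraries PSMD5 had 23.9, 27.1 and 26.2 CPM, above every vehicle library, with a log2 change of 0.42 ± 0.12 (SE) that missed the threshold (edgeR adjusted p = 0.0763).

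Leaving out 1 library at a time gave 13 to 16 called members in place of 17, and 13 without THP-1 combination replicate 3. PSMB3 lost its call without that library, PSMB2 without it or without vehicle replicate 2, and PSMD13 without it or without vehicle replicate 3, with adjusted p up to 0.0598, 0.0553 and 0.101.

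**Figure D3:**
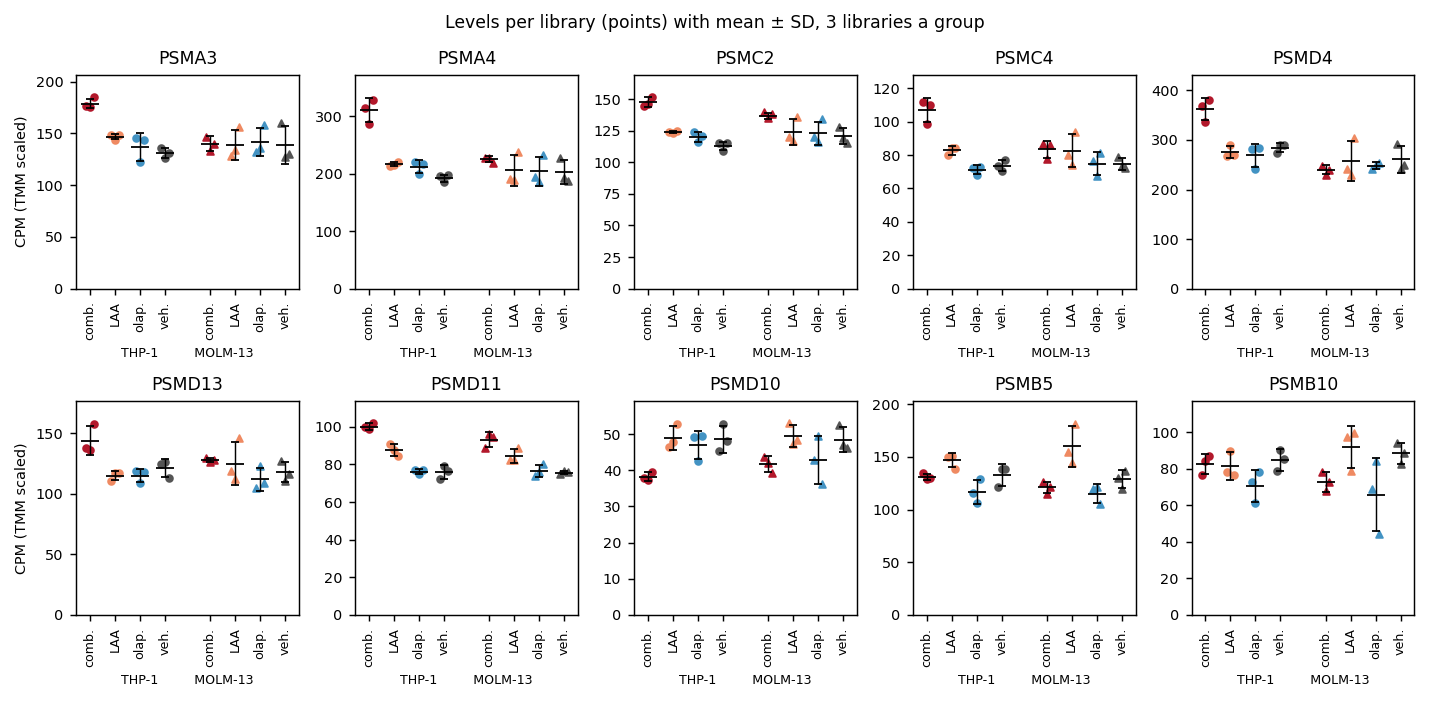
CPM (TMM scaled) of 10 members in every library, with mean and SD of 3 libraries a group; circles are THP-1, triangles libraries labelled MOLM-13, each in the order combination, LAA, olaparib, vehicle. PSMA4, PSMA3, PSMC2, PSMC4 and PSMD4 stand highest in the THP-1 combination, PSMD10 lowest there, and PSMB5 and PSMB10 show no such step.

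The single compounds moved none of these genes past the threshold in THP-1. LAA gave 0 higher and 0 lower, where 0.937% of all genes were called higher and 0.551% lower, and 6 of the 35 had an unadjusted p below 0.05, as had 2012 of all 16331 genes. DESeq2 called 1 member in that comparison, higher, and limma on FPKM called 0. The log2 changes with LAA had a median of 0.07, and 27 of 35 (77.1%) were above 0, against 49.1% of all genes. Olaparib gave 0 higher and 0 lower, where 0.184% of all genes were called higher and 0.0857% lower, with 5 members and 1516 of all 16331 genes at an unadjusted p below 0.05 and 0 members called by DESeq2 or limma. Its median was -0.05, and 11 of 35 changes (31.4%) were above 0, against 49.9% of all genes. Among all genes, the olaparib calls were 30 higher and 14 lower, or 36 and 9 with total-count scaling in place of TMM.

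The combination also exceeded each compound alone. Over LAA, 13 members were higher and 1, PSMD10, was lower, against 10.1% and 10.2% of all genes. Over olaparib, 18 were higher and 1, again PSMD10, was lower, against 12.3% and 11.9%. The 13 that were higher over LAA were higher in all 3 comparisons: PSMA3, PSMA4, PSMA5, PSMC2, PSMC3, PSMC4, PSMC5, PSMD3, PSMD4, PSMD7, PSMD8, PSMD11 and PSMD13. These comparisons share the combination libraries. PSMB6 and PSMD1 were higher only over olaparib by these calls, and PSMB6 was higher there by 0.31 ± 0.08 on the log2 scale (SE; edgeR adjusted p = 0.005). Without LAA replicate 3 the calls over LAA were 8 in place of 14, and without LAA replicate 1 they were 9. Over LAA, the PSMD11 call was lost under 9 of 16 alternatives, the PSMA5 call under 8 and the PSMC3 call under 3. Those of PSMD3 and PSMD8 were lost under 2 each, and those of PSMC5 and PSMD7 under 1 each. The calls of PSMA3, PSMA4, PSMC2, PSMC4, PSMD4 and PSMD13 over LAA held under all 16.

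For 6 genes the combination exceeded the sum of the single effects on the log2 scale: PSMA4, PSMC4, PSMD3, PSMD4, PSMD8 and PSMD13. None was called short of it, and 6 had values below 0, among them PSMD5 at -0.4 ± 0.17 and PSMD10 at -0.32 ± 0.12 (SE). Over all genes 4.04% were called higher and 3.54% lower in this interaction. PSMD4 had the largest value among the 6, 0.46 ± 0.09 (SE; edgeR adjusted p = 0.00139). PSMC4 followed with 0.41 ± 0.1 (SE; adjusted p = 0.00744), PSMD13 with 0.39 ± 0.1 (SE; adjusted p = 0.012) and PSMA4 with 0.37 ± 0.09 (SE; adjusted p = 0.00762). PSMD13 had 111, 117 and 117 CPM with LAA and 119, 109 and 118 with olaparib, so each of those libraries lay below vehicle replicates 1 and 2, while the combination lay above all. These 4 calls held under all 21 alternatives. The PSMD3 call was lost under 7 of 21, all omissions of 1 library, and the PSMD8 call under 14 of 21, with adjusted p up to 0.117 and 0.155. Leaving out 1 library gave 4 to 7 calls.

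**Figure D4:**
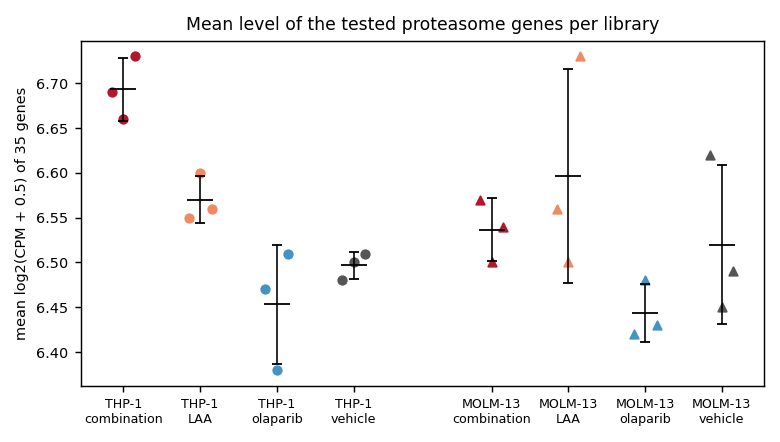
Mean of log2(CPM + 0.5) over the 35 tested genes in each library (points), with mean and SD of 3 libraries; the y axis does not start at 0. The THP-1 combination libraries stand highest in their line at 6.69 ± 0.035 against 6.5 ± 0.015 with vehicle, and among libraries labelled MOLM-13 the combination and vehicle libraries overlap.

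In the libraries labelled MOLM-13, the combination raised 1 member over vehicle, PSMD11, and lowered 0, where 4.85% of 16160 genes were called higher and 7.35% lower. The median log2 change was 0.01 over the members and 0.003 over all genes. Mitochondrially encoded genes took 9.08 ± 0.306% of counts with the combination and 6.71 ± 0.0361% with vehicle (SD, n = 3 each). With those genes left out of the library sizes the count was again 1 higher and 0 lower. PSMD11 had 88.6, 96.2 and 94.6 CPM with the combination, 82.3, 82.2 and 88.9 with LAA, 73.8, 75.9 and 80.2 with olaparib, and 75, 76.3 and 75.8 with vehicle. The combination stood above olaparib and vehicle in every library, and the log2 change over vehicle was 0.3 ± 0.07 (SE; edgeR adjusted p = 0.00923). The call was lost without combination replicate 2 (adjusted p = 0.0592). With total-count scaling 4 members were higher, DESeq2 called 3 and the fit of only these groups 2 higher and 1 lower. Total-count scaling also turned the balance over all genes, to 1096 higher and 934 lower, against 784 and 1188 with TMM.

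The genes that led in THP-1 had smaller differences there. PSMA4 had 227, 228 and 219 CPM with the combination, 191, 189 and 237 with LAA, 194, 186 and 233 with olaparib, and 227, 193 and 187 with vehicle, with a log2 change of 0.15 ± 0.1 (SE). PSMC4 had 86.5, 77.5 and 86.3 CPM with the combination, 79.9, 74.2 and 93.7 with LAA, 76.3, 67.5 and 81.1 with olaparib, and 78.6, 73.3 and 72 with vehicle, with 0.16 ± 0.09 (SE). PSMD4 had 248, 230 and 240 CPM with the combination, 242, 229 and 304 with LAA, 241, 249 and 254 with olaparib, and 292, 242 and 250 with vehicle, with -0.13 ± 0.1 (SE). In each of the 3 the groups overlapped. PSMA3 had 147, 133 and 140 CPM with the combination and 160, 127 and 130 with vehicle, and PSMC2 had 140, 135 and 138 with the combination and 128, 119 and 115 with vehicle. PSMC2 did not overlap but missed the threshold at an edgeR adjusted p of 0.134. PSMD10 had 43.6, 42.1 and 39.3 CPM with the combination, 53, 47.2 and 48.3 with LAA, 42.9, 49.5 and 36.1 with olaparib, and 52.5, 46.9 and 46.2 with vehicle, with -0.22 ± 0.1 (SE; edgeR adjusted p = 0.189). Of the 16 genes higher in THP-1, 13 had a log2 change above 0 in the libraries labelled MOLM-13, with a range from -0.13 to 0.45 and a median of 0.11.

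Among the catalytic genes there, PSMB5 stood highest with LAA without passing the test against vehicle. PSMB5 had 126, 115 and 121 CPM with the combination, 155, 144 and 181 with LAA, 120, 121 and 105 with olaparib, and 130, 120 and 137 with vehicle. All 3 LAA libraries stood above the 9 others, with a log2 change over vehicle of 0.32 ± 0.09 (SE; edgeR adjusted p = 0.0764). PSMB6 had 104, 88 and 97.7 CPM with the combination, 110, 95.1 and 128 with LAA, 82.7, 86.5 and 107 with olaparib, and 102, 88.7 and 100 with vehicle. PSMB7 had 112, 101 and 101 CPM with the combination, 114, 109 and 132 with LAA, 95.6, 106 and 91.9 with olaparib, and 115, 103 and 103 with vehicle. For PSMB6 and PSMB7 the LAA and vehicle libraries overlapped. PSMB10 had 78.1, 67.6 and 72.7 CPM with the combination, 97.5, 78.8 and 99.8 with LAA, 69.2, 84 and 44.4 with olaparib, and 94.3, 82.5 and 88.6 with vehicle. Its olaparib libraries were spread most widely, and replicate 3 of that group, the lowest for PSMB10, also had the highest mitochondrial share of all libraries, 11.02%, whose part was not tested.

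The deubiquitinase and the other chaperones were not called in the libraries labelled MOLM-13. PSMD14 had 131, 131 and 120 CPM with the combination, 127, 128 and 143 with LAA, 120, 119 and 136 with olaparib, and 142, 126 and 124 with vehicle. PSMD5 had 25, 24.9 and 22.3 CPM with the combination, 24.8, 24.3 and 20.4 with LAA, 27.1, 23.3 and 26.1 with olaparib, and 21.5, 26.1 and 25.9 with vehicle. Both overlapped between groups. PSMD9 had 8.28, 7.05 and 8.66 CPM with the combination, 7.67, 5.73 and 9.11 with LAA, 4.69, 6.78 and 6.56 with olaparib, and 6.35, 4.84 and 6.28 with vehicle, with 0.45 ± 0.19 on the log2 scale (SE; edgeR adjusted p = 0.137).

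LAA alone called 0 members there, where 0.792% of all genes were higher and 1.08% lower. At an unadjusted p below 0.05 there were 4, and 2323 of all 16160 genes, while DESeq2 called 1 and limma 0. The median log2 change was 0.07, as in THP-1, and 28 of 35 (80%) were above 0, against 50.3% of all genes. LAA replicate 3 had the highest mean level of its line, and without LAA replicate 2 there was 1 call. Olaparib alone called 0, against 0.00619% higher and 0% lower over all genes, with 1 member and 1354 of all genes at an unadjusted p below 0.05 and 0 members by DESeq2 and limma. Its median was -0.06, and 13 of 35 changes (37.1%) were above 0, against 51.2% of all genes. Between the combination and LAA, 0 members were higher and 1, PSMB5, was lower, by -0.41 ± 0.09 (SE; edgeR adjusted p = 0.00456), against 6.68% and 8.25% of all genes. Without LAA replicate 2 that count was 4, all lower. Between the combination and olaparib, 1 was higher, PSMD11, and 0 lower, against 2.89% and 4.59%, and the call was lost without olaparib replicate 1 or 2 or combination replicate 2 or 3. The interaction called 0, against 0.712% and 1.32% over all genes, with 0 members and 2242 of all genes at an unadjusted p below 0.05 and 0 members by DESeq2 and limma. With total-count scaling the balance over all genes was 1509 higher and 946 lower for the combination against LAA, where TMM gave 1080 and 1333. It was 771 and 529 against olaparib, where TMM gave 467 and 741, and 169 and 159 in the interaction, where TMM gave 115 and 214.

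Set against each other, the effect of the combination was larger in THP-1 for 2 genes. The difference, THP-1 minus MOLM-13 on the log2 scale, was 0.54 ± 0.12 for PSMA4 (SE; edgeR adjusted p = 0.0121) and 0.48 ± 0.12 for PSMD4 (SE; adjusted p = 0.0276). No member was called the other way, 5 of 35 had values below 0, and over 17089 genes 1.53% were higher and 0.597% lower. PSMA3, at 0.44 ± 0.12, missed the threshold (edgeR adjusted p = 0.0508). The PSMA4 call was lost without MOLM-13 vehicle replicate 1, at 0.0591. The PSMD4 call was lost under 9 of 22 alternatives, with adjusted p up to 0.118, and 8 of the 9 left out 1 library of either label. DESeq2 called 4 members. The median difference over members was 0.19, and 30 of 35 (85.7%) were above 0, against 51.6% of all genes. For LAA, 0 members differed between the lines, against 0.129% higher and 0.0117% lower over all genes. For olaparib, 0 differed, against 0% and 0.00585%. In each of those 2 comparisons 2 members had an unadjusted p below 0.05, beside 1095 of all genes for LAA and 747 for olaparib, and DESeq2 and limma called 0.

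**Figure D5:**
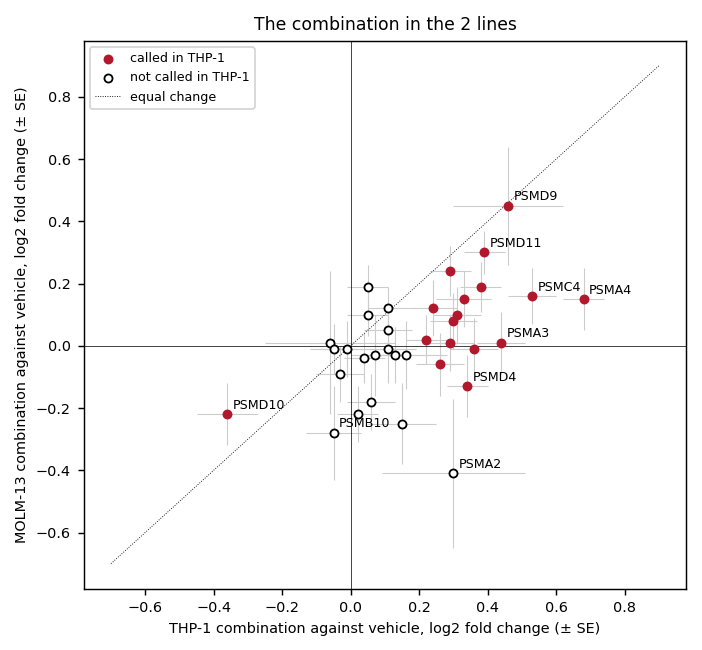
Log2 fold change of the combination against vehicle in THP-1 (x axis) and in libraries labelled MOLM-13 (y axis) for the 35 tested genes, with SE bars and a dotted line of equal change. Most genes called in THP-1 lie below the dotted line, PSMA4 at 0.68 and 0.15 and PSMD4 at 0.34 and -0.13, while PSMD11 at 0.39 and 0.3 and PSMD9 at 0.46 and 0.45 lie near it.

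With vehicle alone no member was called between the libraries labelled THP-1 and MOLM-13, which given the doubt about that label is not a comparison of lines known to be distinct. THP-1 vehicle against MOLM-13 vehicle called 0 members, where 2.49% of all genes were higher and 1.99% lower, with 2 members and 2443 of all genes at an unadjusted p below 0.05 and 0 members by DESeq2 and limma. The log2 differences ran from -0.53 to 0.12 with a median of 0. The summed member level was 4473 ± 67 CPM in THP-1 and 4460 ± 314 in libraries labelled MOLM-13 (SD, n = 3 each). The ratio of summed regulatory to summed core particle levels was 1.1 ± 0.0153 with the combination and 1.07 ± 0.0231 with vehicle in THP-1. In libraries labelled MOLM-13 it was 1.16 ± 0.0361 with the combination and 1.06 ± 0.0404 with vehicle (SD, n = 3 each).

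Partners of the proteasome were counted in 6 lists. In THP-1, where 13.5% of all genes were higher and 13.5% lower, the combination raised all 5 tested activator and inhibitor genes over vehicle. PSME3, the nuclear activator subunit, had 187, 184 and 182 CPM with the combination and 134, 138 and 128 with vehicle, a log2 change of 0.46 ± 0.06 (SE). PSME2, an interferon-inducible activator subunit, had 322, 323 and 354 CPM with the combination and 174, 179 and 180 with vehicle, a change of 0.9 ± 0.12 (SE). The immunoproteasome genes outside the set rose too. PSMB9 had 156, 163 and 177 CPM with the combination and 78, 96.8 and 86.4 with vehicle, and PSMB8 had 295, 301 and 324 CPM with the combination and 209, 246 and 241 with vehicle. PSMB9 changed by 0.92 ± 0.1 and PSMB8 by 0.39 ± 0.07 (SE), while PSMB10, inside the set, changed by -0.05 ± 0.08. PSMA8 was too low to test. Median log2 changes were 0.36 for the activators and inhibitor and 0.66 for PSMB8 and PSMB9.

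Against the same 13.5% each way over all genes, 3 of 7 assembly genes rose and 1 fell. PSMG1, a chaperone of the alpha ring, had 52.2, 58.4 and 51.9 CPM with the combination and 37.9, 35 and 38.3 with vehicle. AKIRIN2, which brings proteasomes into the nucleus, had 109, 99.3 and 101 CPM with the combination and 86.2, 89.1 and 85.7 with vehicle. PSMG2, the partner of PSMG1, changed by -0.23 ± 0.08 (SE) with overlapping groups, and its call was lost with total-count scaling at an edgeR adjusted p of 0.057. Of 16 associated and shuttle proteins, 6 rose and 0 fell. Among them ZFAND5, a stress-induced proteasome activator, had 149, 144 and 129 CPM with the combination and 110, 103 and 104 with vehicle. ADRM1, a ubiquitin receptor, had 103, 108 and 120 CPM with the combination and 77.6, 83 and 85.4 with vehicle.

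In the NFE2L1 route 2 of 7 genes rose and 0 fell, where 13.5% of all genes rose and 13.5% fell. NFE2L1 had 145, 142 and 148 CPM with the combination, 99.4, 108 and 100 with LAA, 106, 109 and 107 with olaparib, and 102, 106 and 107 with vehicle. Only the combination stood apart, with a log2 change of 0.46 ± 0.06 over vehicle (SE; edgeR adjusted p = 1.57e-06) and 0.46 ± 0.09 in the interaction (SE; adjusted p = 0.000817). NFE2L2 had 100, 113 and 107 CPM with the combination and 91.3, 75 and 82.1 with vehicle. Of 6 genes for ubiquitin and its activation, 0 rose and 3 fell (2 with total-count scaling). RPS27A, which encodes ubiquitin fused to a ribosomal protein, had 736, 790 and 871 CPM with the combination and 899, 973 and 1050 with vehicle.

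In the libraries labelled MOLM-13, where 4.85% of all genes were higher and 7.35% lower, the combination raised 2 of 5 activator and inhibitor genes (4 of 5 with total-count scaling), PSME3 by 0.39 ± 0.07 and PSME4 by 0.33 ± 0.09 on the log2 scale (SE). It raised 0 and lowered 1 of 7 assembly genes, PSMG2 (-0.3 ± 0.08), and raised 1 of 16 associated genes, the deubiquitinase USP14 (0.29 ± 0.08). In the NFE2L1 route DDI2, the protease that activates NFE2L1, was higher by 0.35 ± 0.11 and MAFF, a small MAF partner, was lower (-1.01 ± 0.29). MAFF was low in both groups, at 1.86, 1.34 and 1.14 CPM with the combination and 3.18, 2.98 and 2.61 with vehicle. MAFG and MAFK, the other small MAF genes of the list, were not called. In the ubiquitin list 2 of 6 genes were lower, RPS27A among them (-0.48 ± 0.11). PSMB8 and PSMB9 were not called there, and their line difference was called, at 0.49 ± 0.12 and 0.71 ± 0.16 (SE; edgeR adjusted p = 0.0294 and 0.0133).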

How the data were processed

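PolyA-selected RNA of 24 libraries, 8 groups of 3, was analysed from the deposited tables. HISAT2, SAMtools and DESeq2 are listed, with build hg38, per the submitters' processing notes. How reads were assigned to genes, and whether by strand, is not given in the sources used here. Counts as deposited are whole numbers per gene, not normalized, and total counts per library bound the precision of each value. The deposited FPKM values are those counts divided by gene length and a library size that was 95.2 to 104% of the column total.

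The members and lists were chosen with earlier results of these data known. Each line was fitted over its 12 libraries, and differences between lines over all 24, with edgeR 4.0.16 in R 4.3.3 on the counts (TMM scaling, filterByExpr defaults, quasi-likelihood F test). In each of 16 comparisons the Benjamini-Hochberg adjustment ran over all genes tested, with a threshold of 0.05. A gene is called where it passed that threshold. SE is the log2 change divided by the square root of F. Values in every library are given for up to 4 called members per comparison and direction with the smallest adjusted p, in the comparisons with vehicle, the interactions and the baseline, and for PSMB5, PSMB6, PSMB7, PSMB10, PSMB11, PSMD4, PSMD14, PSMD5, PSMD9 and PSMD10. From each list up to 2 called genes per direction are named. The PSMA5, PSMB2, PSMB3, PSMC3, PSMC5, PSMD1, PSMD2, PSMD3, PSMD8 and PSMA2 values were added to show the rest of a ring or a limit.

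Alternatives were RLE and total-count scaling, library sizes without mitochondrially encoded genes, 2 other filters (none, and at least 1 CPM), DESeq2 1.42.0, limma 3.58.1 on log2(FPKM + 1) or log2(FPKM + 0.1), a replicate block, fits of only the groups compared, and omission of each library. The scaling of the partner lists was added after the data were seen. The fit was tested on simulated data. Replicate libraries differed by more than sampling noise, so none was counted as a duplicate. Promoters came from RefSeq (GRCh38.p14), and coordinates of genes in the tables were not mixed with them. Some marker and list genes are not reported here.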

Additional observations from a re-analysis of the deposited data

Results flagged for a closer look

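For 2 members the effect of the combination differed between libraries labelled THP-1 and MOLM-13 by a test of the difference itself. Whether the second label holds is in doubt, so this is a difference between labels. The difference in log2 fold change over vehicle, THP-1 minus MOLM-13, was 0.54 for PSMA4, where THP-1 changed by 0.68 and libraries labelled MOLM-13 by 0.15. For PSMD4 it was 0.48, where THP-1 changed by 0.34 and libraries labelled MOLM-13 by -0.13. Both calls were lost without MOLM-13 vehicle replicate 1, and that of PSMD4 under 9 of 22 alternatives in all. The part of the low line-restricted RNA in the libraries labelled MOLM-13 was not tested.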

How the results depend on the processing

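Over 1018 alternatives of 61 called member results, 937 kept direction and call, 81 kept direction and lost the call, and 0 turned direction. Of 284 alternatives of the 16 counts of called members, 37 moved the count by more than 1.5 times, and their cause was not tested beyond what the alternatives are. With no filter on low counts the counts became 1 for THP-1 LAA against vehicle, 2 for the MOLM-13 combination against vehicle, 1 for MOLM-13 LAA, 1 for MOLM-13 olaparib and 2 for the MOLM-13 combination against LAA. With DESeq2 they became 1, 3, 1 and 2 for the same comparisons other than olaparib, and 4 for the line difference in the combination effect. With total-count scaling the MOLM-13 combination had 4 against vehicle, 3 against LAA and 2 against olaparib. With fits of only the groups compared the counts were 1 for THP-1 LAA, 3 for the MOLM-13 combination against vehicle, 2 against LAA and 5 for the line difference. Limma on log2(FPKM + 0.1) gave 1 for the line difference.

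Of same-number pairs, 2 of 18 in THP-1 and 4 of 18 in MOLM-13 had a correlation of deviations over 0.1, within a range of -0.27 to 0.43. For replicate 2 of MOLM-13 it was 0.38 between combination and LAA, 0.32 between combination and vehicle and 0.43 between LAA and vehicle. With olaparib replicate 2 the same groups had -0.16, -0.05 and -0.15. Pairs with different numbers were not computed for reference, so whether the replicate numbers pair the samples stays unknown. The replicate block left 17 calls for the THP-1 combination against vehicle, and gave 2 for the MOLM-13 combination and 4 for the line difference. With 1 library left out the counts ran from 13 to 16 for the THP-1 combination against vehicle, 8 to 14 against LAA, 18 to 21 against olaparib and 4 to 7 in the interaction. For MOLM-13 they ran from 0 to 1 for the combination against vehicle, for LAA and for the combination against olaparib, and from 1 to 4 for the combination against LAA. The line difference ran from 0 to 3. Under the 3 scalings, the 22 partner genes called in THP-1 kept direction and 2 of 66 values lost the call, PSMG2 and UBB, both with total-count scaling. For MOLM-13 the 8 called partner genes kept direction and call in all 24 values, while total-count scaling raised the called activator and inhibitor genes to 4 and those of the NFE2L1 route to 2 higher and 1 lower. Low counts left PSMB11 untested, and of the tested members PSMA2, PSMA6 and PSMD9 had the fewest.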
